A study of Mus musculus with 15 samples.

Results

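The genes described here are 9 regulators of the G1 phase of the cell cycle: the 3 D cyclins Ccnd1, Ccnd2 and Ccnd3, their kinases Cdk4 and Cdk6, and the CDK inhibitors Cdkn1a (which encodes p21), Cdkn1b (p27), Cdkn1c (p57) and Cdkn2c (p18). They were taken by gene symbol from a table of 21702 protein-coding genes, and all 9 were among the 12172 genes with enough counts to be tested. The data are RNA-seq counts of whole livers from 15 female C57BL/6 mice (the C57BL/6N substrain in the study's methods) aged 8 to 14 weeks, wild type in genotype, in 5 groups of 3. Every mouse had received an AAV8 vector through the tail vein, at least 1 week before mating where it was mated. AAV8-null, which carries no insert, was given to non-pregnant (NP) mice and to mice taken at 8 and 16 days post-coitum (dpc), whereas AAV8-p21, in which the hepatocyte-directed TBG promoter drives p21, was given to mice taken at 8 dpc and 16 dpc. No NP mice with AAV8-p21 were analysed here, so the vector and stage can be compared only within pregnancy. The comparisons below ask how the G1 machinery differs between stages of pregnancy and between mice with and without the p21 vector.

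D cyclins are made in response to growth signals and bind CDK4 or CDK6, and the active kinase phosphorylates the retinoblastoma protein so that E2F factors can switch on the genes for DNA replication. The INK4 inhibitors, to which p18 belongs, bind CDK4 and CDK6 directly. The CIP/KIP inhibitors p21, p27 and p57 block CDK2 complexes but also bind D cyclin complexes, whose assembly p21 and p27 can assist. In liver, cyclin D1 is the D cyclin that marks hepatocytes entering the cycle after tissue loss, and p21 is a target of p53 that holds hepatocytes out of the cycle.

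The p21 carried by the vector and the mouse's own p21 share their coding sequence, which bears on every Cdkn1a value below. The insert was copied with the following primers, shown because they set which part of Cdkn1a the vector holds. The capitals mark the start codon in the forward primer and the complement of the stop codon in the reverse primer.

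forward cloning primer: accATGtccaatcctggtgatg

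reverse cloning primer: TCAgggttttctcttgcagaag

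In GENCODE M21 on GRCm38, the primers enclosed 480 bases, which is the whole coding sequence with its stop codon, in 4 Cdkn1a transcripts of 922 to 2080 bases (chr17:29098408-29099393, plus strand). Reads from the insert therefore fall on the coding exons of the gene, and gene counts cannot tell vector transcript from endogenous transcript in the AAV8-p21 livers.

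For 6 of the 9 genes RefSeq gave 9 windows of 250 bases before a transcript start (GRCm38.p6). One window is shown for each of Cdkn2c and Cdkn1b, the inhibitors that were lower in every AAV8-p21 library than in any AAV8-null library of the same stage. The Cdkn2c window lies at chr4:109665373-109665609 on the minus strand, before the start of its shorter transcript and inside an intron of its longer one, without the bases that fall in an exon, and the Cdkn1b window lies at chr6:134920151-134920400 on the plus strand, outside any exon of the gene. Capitals mark an E2F-type motif in Cdkn2c and CCAAT motifs in Cdkn1b.

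Cdkn2c: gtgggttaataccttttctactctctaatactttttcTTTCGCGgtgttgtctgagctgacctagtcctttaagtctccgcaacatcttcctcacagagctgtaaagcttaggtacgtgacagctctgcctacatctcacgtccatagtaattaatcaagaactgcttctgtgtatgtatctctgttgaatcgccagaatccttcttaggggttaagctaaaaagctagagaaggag

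Cdkn1b: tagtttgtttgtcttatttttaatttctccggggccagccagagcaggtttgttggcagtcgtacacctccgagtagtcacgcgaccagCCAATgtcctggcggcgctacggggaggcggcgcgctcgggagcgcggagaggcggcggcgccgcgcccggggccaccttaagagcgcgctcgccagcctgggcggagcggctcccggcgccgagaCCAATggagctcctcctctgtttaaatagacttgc

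The E2F-type motif was searched on both strands as TTTCGCG, as its variant TTTGGCG and as the variant TTTCCCG. It stood 200 bases before the Cdkn2c start and in no other of the 9 windows, and it is found in 4.57% of 32851 such windows. CCAAT stood 161 and 35 bases before the Cdkn1b start and is found in 33.8% of windows. CRE, AP1, E-box, TATA and GC-box motifs were searched too, and the marked motifs were chosen from among all of these. The Cdkn1b window also held a GC-box (GGGCGG) 61 bases before its start, left in small letters. These matches describe letters in the reference, and no binding was measured.

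The libraries held 12280709 to 17615185 counts. Alb, the gene for serum albumin, took 7.90% to 12.9% of the counts in NP and 8 dpc livers and 20.5% to 27.8% at 16 dpc, and TMM scaling in edgeR, which sets levels against the bulk of genes, gave factors of 0.682 to 1.25. Levels are given as CPM (counts set against the TMM-scaled library size). Pairs of libraries within groups correlated over genes at 0.950 or more (Pearson's r of log2 CPM). One AAV8-null library at 8 dpc (library 3) stood apart from its group in a list of 15 proliferation markers, with a summed level of 58.7 CPM against 205 and 214 CPM. Over genes it correlated at 0.961 and 0.955 with libraries 1 and 2 of its group, which correlated at 0.986. NP library 1 stood apart in Cdkn1a, as given below. Over genes it correlated at 0.952 and 0.950 with NP libraries 2 and 3, which correlated at 0.989. The 5 markers of exocrine pancreas, which lies beside the liver, summed to at most 0.457 CPM. The replicates are separate mice.

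In AAV8-null livers, Ccnd1 was the 1 D cyclin that passed the test between stages, and it was lowest at 16 dpc. It encodes cyclin D1. Its level was 111, 60.9 and 56.1 CPM in the NP livers, 72.6, 116 and 95.7 CPM at 8 dpc, and 21.1, 21.7 and 26.3 CPM at 16 dpc. The 16 dpc livers were below all others, and the NP and 8 dpc livers overlapped. From NP to 16 dpc Ccnd1 fell by 1.72 on the log2 scale (SE 0.337, 95% interval -2.44 to -1.002, adjusted p = 0.00764, edgeR quasi-likelihood test with Benjamini-Hochberg adjustment over all genes tested). From 8 dpc to 16 dpc it fell by 2.04 (SE 0.340, adjusted p = 0.00287), which is a 4.12-fold lower level. From NP to 8 dpc the log2 difference was 0.32 with an interval of -0.38 to 1.01 (adjusted p = 1.0).

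The other D cyclins did not pass the test between stages. Ccnd3, which is broadly expressed, lay at 29.6 to 50.8 CPM in NP livers, 26.8 to 41.98 CPM at 8 dpc and 22.7 to 26.3 CPM at 16 dpc, with log2 differences of -0.70 against NP (adjusted p = 0.106) and -0.53 against 8 dpc (adjusted p = 0.203). Ccnd2 lay at 6.86 to 11.2 CPM in NP livers, 4.53 to 6.34 CPM at 8 dpc and 2.94 to 5.83 CPM at 16 dpc, with log2 differences from NP of -0.78 at 8 dpc (adjusted p = 0.564) and -0.90 at 16 dpc (adjusted p = 0.104). Both pregnant groups were below the NP group in Ccnd2 without overlap, although neither difference passed the test. Over all genes tested, the groups did not overlap in 10.2% from NP to 8 dpc and in 24.6% from NP to 16 dpc.

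Neither of the kinases passed the test between stages. Cdk4 stayed between 21.2 and 32.8 CPM in all 15 libraries, and its log2 differences between stages in AAV8-null livers were at most 0.09 in size, with an interval of -0.50 to 0.31 for 16 dpc against NP. Cdk6 averaged 17.8 ± 3.92 CPM in NP livers, 15.8 ± 4.34 CPM at 8 dpc and 12.8 ± 3.38 CPM at 16 dpc (SD, n = 3), and the stages overlapped. For 16 dpc against NP, the interval of Cdk6 ran from -0.99 to 0.04 (adjusted p = 0.274).

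Among the inhibitors, Cdkn1a was highest at 16 dpc, where Ccnd1 was lowest. With the null vector, so without any vector transcript, it stood at 33.7, 5.12 and 3.29 CPM in NP livers, 27.2, 16.5 and 33.4 CPM at 8 dpc, and 64.4, 127 and 59.8 CPM at 16 dpc. All 16 dpc livers were above all others, and one NP liver was at the level of the 8 dpc group. The rise from NP to 16 dpc was 2.58 on the log2 scale (SE 0.691, interval 1.10 to 4.06, adjusted p = 0.0387), a 5.98-fold higher level. Without that NP liver the difference was 4.31 (adjusted p = 0.000456), and without any one of the other 5 libraries it was 2.11 to 2.77 (adjusted p = 0.0526 to 0.137). From 8 dpc to 16 dpc the difference was 1.71 (adjusted p = 0.142). Of 8 other settings 1 called it, DESeq2 on these 2 groups alone (adjusted p = 0.000335), and 0 of 6 fits without 1 library did. From NP to 8 dpc the difference was 0.87 (interval -0.54 to 2.29).

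Cdkn1c was lower late in pregnancy. This maternally expressed imprinted gene had 2.84, 3.17 and 1.89 CPM in NP livers, 2.21, 2.92 and 1.82 CPM at 8 dpc, and 1.16, 0.916 and 1.33 CPM at 16 dpc. The 16 dpc livers were below all others. It fell by 1.21 on the log2 scale from NP to 16 dpc (SE 0.332, interval -1.92 to -0.50, adjusted p = 0.0421), and its difference from 8 dpc to 16 dpc was -1.02 (adjusted p = 0.0779). These levels rest on 11 to 15 counts per library at 16 dpc and 27 to 52 in NP livers, and the NP call was lost (adjusted p of 0.0728 to 0.153) when any of the 6 libraries other than NP library 3 was left out.

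Cdkn2c and Cdkn1b were highest at 8 dpc. Cdkn2c stood at 6.51, 5.85 and 4.82 CPM in NP livers, 11.9, 12.4 and 6.92 CPM at 8 dpc, and 5.62, 4.33 and 6.05 CPM at 16 dpc. The 8 dpc group was above both others without overlap, but the library with 6.92 CPM was close to them. The log2 differences were 0.86 from NP to 8 dpc (SE 0.274, adjusted p = 0.426) and -0.97 from 8 dpc to 16 dpc (SE 0.278, adjusted p = 0.0508). Without that library the latter was -1.19 (adjusted p = 0.0144), the 1 call among 6 fits that each left out 1 library. DESeq2 on all 15 libraries called it (adjusted p = 0.0208), the 1 call among 9 other settings. Cdkn1b stood at 16.3, 13.6 and 14.7 CPM in NP livers, 21.01, 19.8 and 19.9 CPM at 8 dpc, and 12.7, 11.2 and 19.8 CPM at 16 dpc. The 8 dpc livers were all above the NP livers, whereas one 16 dpc liver reached the 8 dpc level. Its difference from NP to 8 dpc was 0.45 (interval -0.04 to 0.94, adjusted p = 0.855).

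In all, 3 of the 9 genes (Ccnd1, Cdkn1a and Cdkn1c) passed the test between NP and 16 dpc, where 6.47% of all genes tested did. From 8 dpc to 16 dpc 1 of the 9 (Ccnd1) passed, against 6.75% of all genes. Between NP and 8 dpc none of the 9 passed, and neither did any other gene in edgeR (0.0%), while 798 genes had an unadjusted p below 0.05 and the Wald test of DESeq2 on all 15 libraries called 73 genes, none of the 9 among them. The median log2 difference of the 9 genes from NP to 16 dpc was -0.48, and that of all genes tested was -0.03. Groups did not overlap in 5 of the 9 from NP to 16 dpc (24.6% of all genes). They did not in 3 from NP to 8 dpc (10.2%) and in 5 from 8 dpc to 16 dpc (25.4%).

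**Figure D1:**
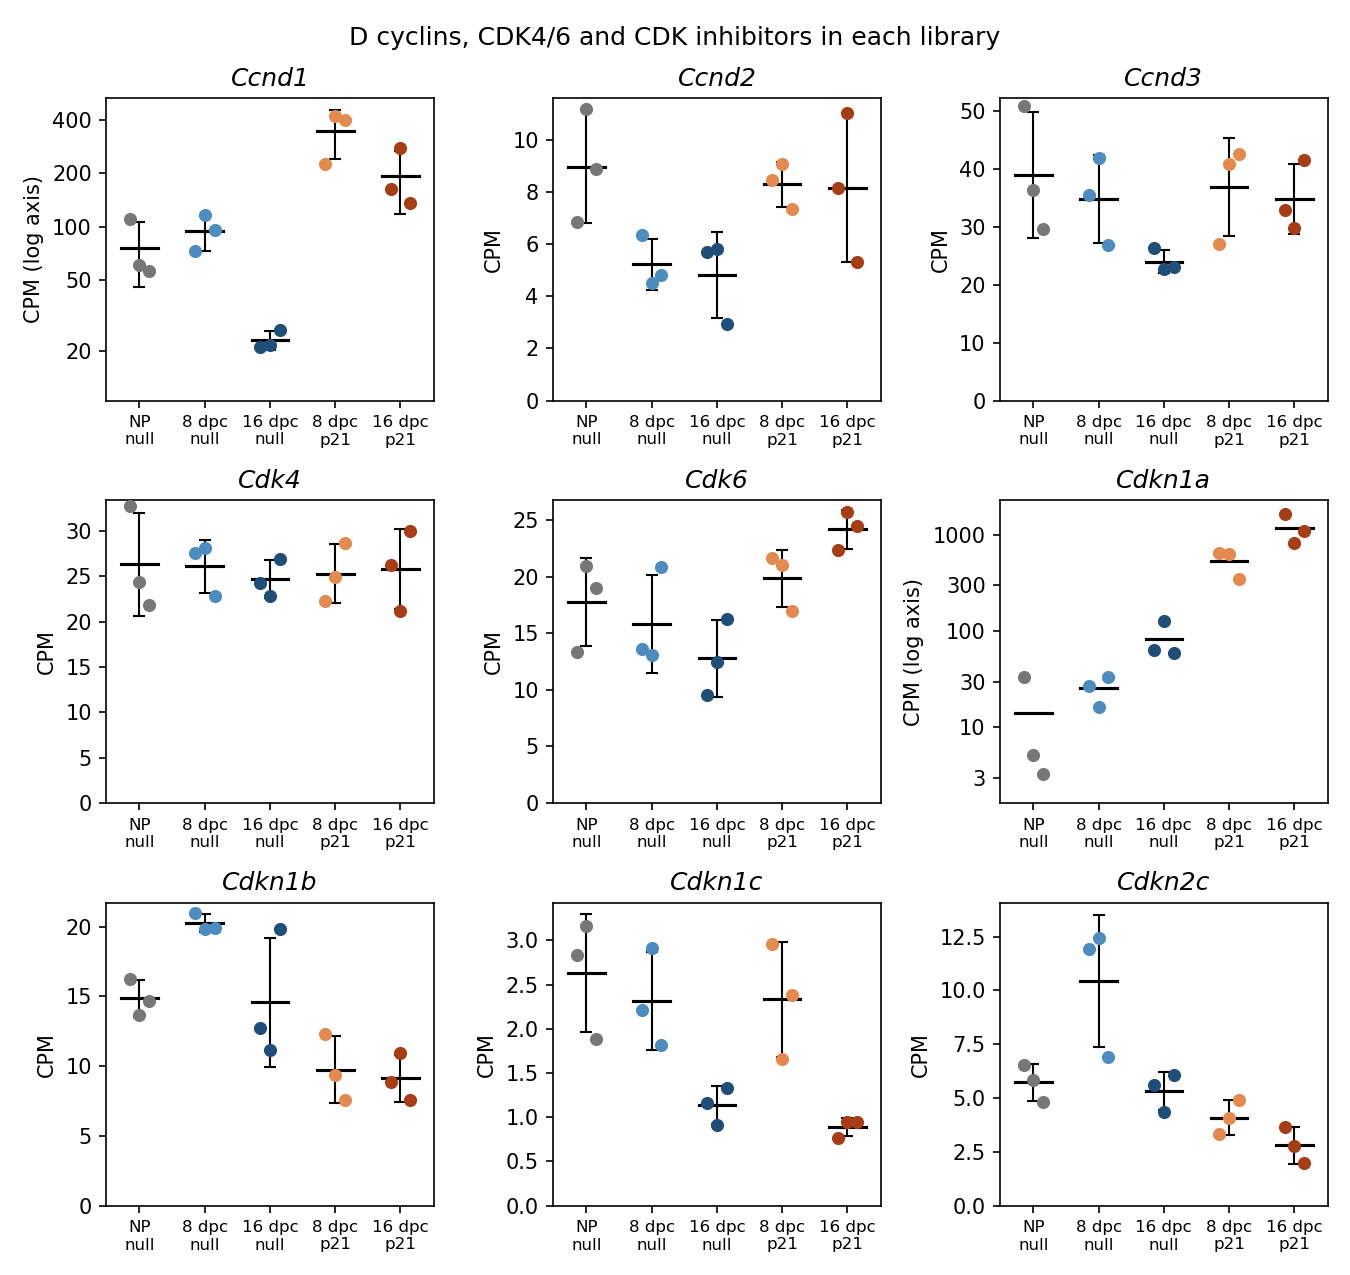
Level of each of the 9 genes in each library (points, CPM) for the 3 AAV8-null groups (NP, 8 dpc, 16 dpc) and the 2 AAV8-p21 groups (8 dpc, 16 dpc), with the mean (line) and SD (bars, n = 3, left out for Cdkn1a); the axes of Ccnd1 and Cdkn1a are logarithmic. Ccnd1 lies at 21.1 to 26.3 CPM in 16 dpc AAV8-null livers and at 137 to 417 CPM in all AAV8-p21 livers, while Cdk4 stays between 21.2 and 32.8 CPM throughout.

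The targeted gene was high in every AAV8-p21 library. Cdkn1a stood at 648, 628 and 347 CPM in the 8 dpc livers and 1664, 815 and 1093 CPM in the 16 dpc livers, against at most 127 CPM in any AAV8-null library. The groups did not overlap at either stage. The log2 difference between vectors was 4.40 at 8 dpc (SE 0.743, interval 2.80 to 5.99) and 3.83 at 16 dpc (SE 0.722, interval 2.28 to 5.37), with adjusted p = 0.110 and 0.0643, and ranks of 4 and 20 by p among the 12172 genes. Averaged over both stages it was 4.11 (SE 0.518, adjusted p = 0.00344), and the exact two-sided permutation test within stage gave p = 0.005, the smallest it can give. Of the endogenous share of these counts nothing can be said.

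Ccnd1 was higher in every AAV8-p21 liver than in any AAV8-null liver of the experiment. Its level was 225, 417 and 398 CPM at 8 dpc and 163, 278 and 137 CPM at 16 dpc. At 8 dpc this compares with at most 116 CPM, and at 16 dpc with at most 26.3 CPM, in the AAV8-null livers. The log2 difference at 16 dpc was 3.06 (SE 0.353, interval 2.31 to 3.82, adjusted p = 0.00148), an 8.37-fold higher level with rank 3 by p among all genes. At 8 dpc it was 1.87 (SE 0.335, interval 1.16 to 2.59, adjusted p = 0.114), a 3.66-fold higher level with rank 6. The average over both stages was 2.47 (SE 0.243, adjusted p = 0.000199, exact permutation p = 0.005).

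The difference in Ccnd1 between vectors was greater at 16 dpc by 1.19 on the log2 scale (interval 0.21 to 2.18), which did not pass the adjustment (unadjusted p = 0.0212, adjusted p = 1.0). No gene of the table passed that test in edgeR (0.0%), 374 had an unadjusted p below 0.05, and DESeq2 called 0 on all 15 libraries and 14 on the 4 compared groups, none of the 9 in either. Within the AAV8-p21 livers Ccnd1 differed by -0.85 from 8 dpc to 16 dpc (interval -1.54 to -0.15, adjusted p = 0.194), so that the level at 16 dpc was 193 ± 74.9 CPM with AAV8-p21 and 23.01 ± 2.82 CPM with AAV8-null (SD, n = 3).

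The gene LTO1 shares 1100 exon bases with Ccnd1 on the opposite strand, and whether the counting used strand is not given in the sources used here. LTO1 stayed between 8.38 and 18.6 CPM in all libraries, with a log2 difference between vectors of 0.23 averaged over stages (adjusted p = 0.513). Reads within the shared bases were not separated, so their part in the Ccnd1 values was not tested. In the same way Ccnd3 shares exon bases with Bysl (7.28 to 21.1 CPM) and Cdk4 with Tspan31 (167 to 690 CPM), the latter at several times the level of Cdk4, so that Cdk4 values are the less certain.

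Cdkn2c and Cdkn1b were lower with AAV8-p21 at both stages. Cdkn2c stood at 3.31, 4.05 and 4.90 CPM in the 8 dpc livers and 3.66, 2.76 and 1.97 CPM in the 16 dpc livers, below every AAV8-null library of the same stage. The log2 difference was -1.35 at 8 dpc (SE 0.278, interval -1.95 to -0.76, adjusted p = 0.184) and -0.93 at 16 dpc (SE 0.294, interval -1.56 to -0.31, adjusted p = 0.284). Without the 8 dpc AAV8-null library that stood apart in proliferation markers, the 8 dpc difference was -1.58 and passed (adjusted p = 0.0238). On average Cdkn2c fell by 1.14 (SE 0.202, adjusted p = 0.0434, exact permutation p = 0.005). That call was lost in 9 of 12 fits that each left out 1 library, where the log2 difference lay between -1.26 and -1.04 and the adjusted p between 0.0178 and 0.139. It held without 8 dpc AAV8-null library 3, 8 dpc AAV8-p21 library 3 or 16 dpc AAV8-p21 library 4.

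Cdkn1b stood at 12.3, 9.36 and 7.56 CPM in the 8 dpc livers and 8.86, 10.9 and 7.57 CPM in the 16 dpc livers. The AAV8-null livers held 19.8 to 21.01 CPM and 11.2 to 19.8 CPM at these stages, so the groups did not overlap, by a narrow margin at 16 dpc. The log2 difference was -1.05 at 8 dpc (SE 0.232, interval -1.55 to -0.56, adjusted p = 0.247) and -0.68 at 16 dpc (SE 0.236, interval -1.18 to -0.17, adjusted p = 0.347). The average of -0.86 (SE 0.165) had an adjusted p of 0.0551 and an exact permutation p of 0.005, and it passed in DESeq2 on all 15 libraries (adjusted p = 0.000659).

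Cdk6 and Ccnd2 were on average higher with AAV8-p21, without passing the test. Cdk6 stood at 21.6, 21.002 and 17.0 CPM in the 8 dpc livers and 22.3, 25.7 and 24.5 CPM in the 16 dpc livers, where the AAV8-null livers had 9.54, 12.5 and 16.3 CPM. The groups were apart at 16 dpc and overlapped at 8 dpc. The log2 difference of Cdk6 was 0.92 at 16 dpc (interval 0.41 to 1.43, adjusted p = 0.175) and 0.33 at 8 dpc (interval -0.17 to 0.83, adjusted p = 1.0), and the difference between stages was not separable from 0 (0.59, interval -0.13 to 1.31). Ccnd2 lay at 7.35 to 9.07 CPM at 8 dpc and 5.32 to 11.05 CPM at 16 dpc, with an average log2 difference of 0.71 (interval 0.25 to 1.17, adjusted p = 0.205). DESeq2 on all 15 libraries called Cdk6 at 16 dpc (adjusted p = 0.0391) and on average (adjusted p = 0.0442), and Ccnd2 in neither.

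Cdk4, Ccnd3 and Cdkn1c did not pass the test between vectors. The averages were 0.01 for Cdk4 (interval -0.28 to 0.30), 0.31 for Ccnd3 (interval -0.05 to 0.67) and -0.17 for Cdkn1c (interval -0.67 to 0.33). Ccnd3 differed by 0.08 at 8 dpc, where the groups overlapped, and by 0.53 at 16 dpc (interval 0.02 to 1.05, adjusted p = 0.505), where the AAV8-p21 livers (29.8 to 41.5 CPM) were all above the AAV8-null livers (22.7 to 26.3 CPM). For Cdk4 the interval of the average leaves out a change of more than 1.23-fold either way. Within AAV8-p21 livers Cdkn1c again fell with stage, from 2.96, 1.66 and 2.38 CPM at 8 dpc to 0.767, 0.945 and 0.947 CPM at 16 dpc. The 2 stages did not overlap, and the difference was -1.39 on the log2 scale (SE 0.335, adjusted p = 0.0356). It rests on 9 to 13 counts per library at 16 dpc, and the call was lost when any of the 6 libraries other than 8 dpc library 2 was left out (adjusted p of 0.0406 to 0.176 over the 6).

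In all, 1 of the 9 genes (Ccnd1) passed between vectors at 16 dpc, where 0.0739% of all genes did, and none at 8 dpc, where 0.0246% did. At 8 dpc 5 of the 9 had an unadjusted p below 0.05, as did 624 of all genes (5.13%), and DESeq2 called 29 genes on all 15 libraries, with Ccnd1, Cdkn1a, Cdkn1b and Cdkn2c among them (adjusted p = 0.000116 for Ccnd1 and 0.0172 for Cdkn1b, the smallest change of the 4 in size). At 16 dpc 7 of the 9 and 1178 of all genes (9.68%) had an unadjusted p below 0.05, and DESeq2 called 135 genes, with Ccnd1, Cdkn1a and Cdk6 among them. For the average over stages 3 of the 9 passed (Ccnd1 and Cdkn1a higher, Cdkn2c lower), against 0.131% of all genes. Between the stages of AAV8-p21 livers 1 of the 9 (Cdkn1c) passed, against 3.29% of all genes, and 3 of the 9 did not overlap, against 22.9%. At both stages alike, 4 of the 9 did not overlap between vectors in the same direction, compared with 1.74% of all genes. They were Ccnd1 and Cdkn1a (higher) and Cdkn1b and Cdkn2c (lower). The median size of the average log2 difference was 0.71 over the 9 genes and 0.19 over all genes tested. Cdkn1a enters that median and these vector counts, apart from the edgeR calls at single stages. The vector carries its coding sequence, so a higher Cdkn1a count was built into the design. With Cdkn1a left out, 2 of the other members passed on average. The vector comparisons at 8 dpc and at 16 dpc use separate libraries from each other. Each shares its AAV8-null libraries with the stage comparisons above, so a low or high AAV8-null group enters both.

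**Figure D2:**
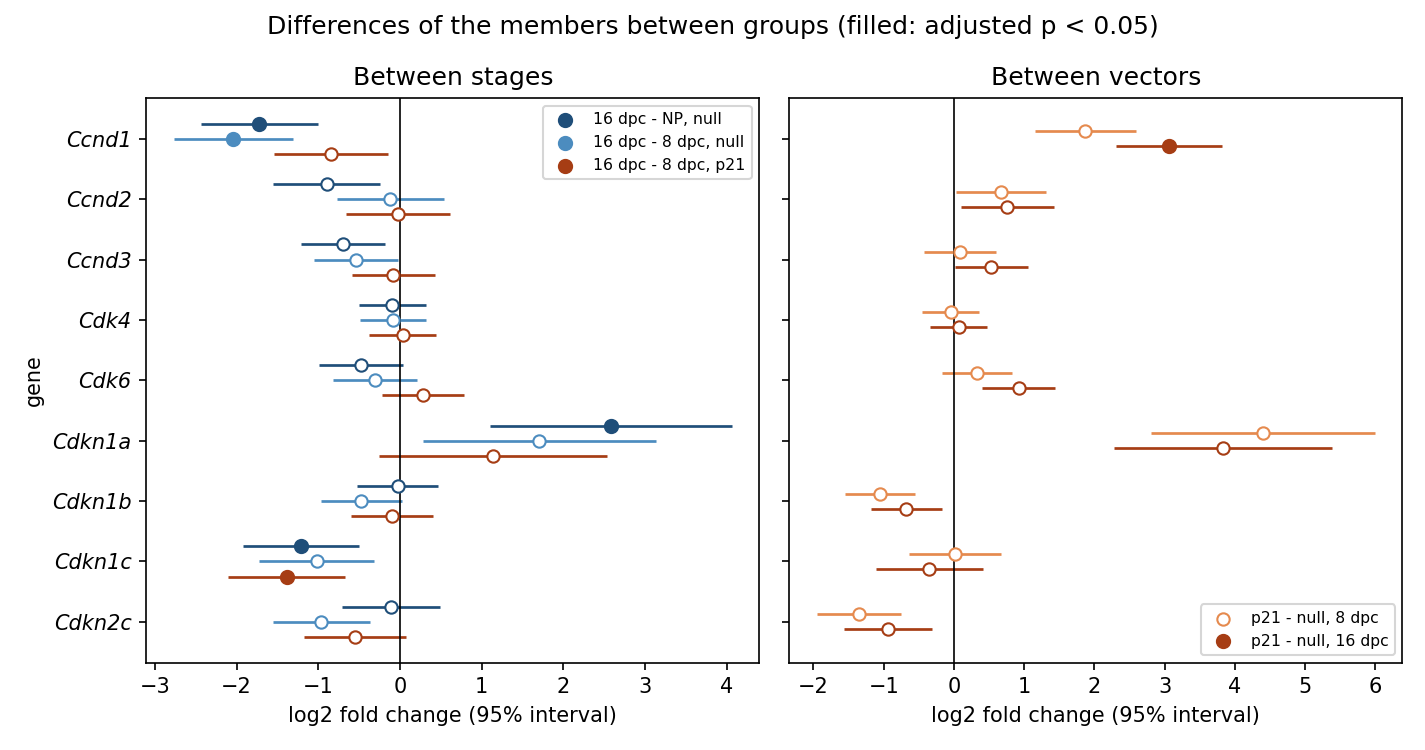
Log2 fold change of the 9 genes with its 95% interval between stages (left: 16 dpc against NP and against 8 dpc with AAV8-null, 16 dpc against 8 dpc with AAV8-p21) and between vectors (right: AAV8-p21 against AAV8-null at 8 dpc and at 16 dpc); filled points have an adjusted p under 0.05 in edgeR. Ccnd1 is lower at 16 dpc than in NP livers (-1.72) and higher with AAV8-p21 at 16 dpc (3.06), and Cdkn1b and Cdkn2c lie below 0 between vectors at both stages.

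Per length, the D cyclin transcripts of these livers were mostly Ccnd1. In CPM per kilobase of exon, a scale that sets genes against each other by the merged exon length of all their transcripts, the 3 D cyclins summed to 21.5 ± 7.47 in NP livers, 24.6 ± 4.91 at 8 dpc and 8.14 ± 0.358 at 16 dpc with AAV8-null (SD, n = 3), and to 78.7 ± 23.5 at 8 dpc and 45.7 ± 15.6 at 16 dpc with AAV8-p21. Every AAV8-p21 liver (34.3 to 94.3) was above every AAV8-null liver (7.80 to 30.1). Ccnd1 made up 74.2% ± 3.83 of the sum in NP livers, 81.3% ± 4.32 at 8 dpc and 59.97% ± 5.09 at 16 dpc, where Ccnd3 took 33.7% ± 3.14. With AAV8-p21 the Ccnd1 share was 93.4% ± 0.945 at 8 dpc and 88.5% ± 4.12 at 16 dpc.

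Of the kinases, Cdk4 had 81.9% to 89.3% of the summed level per kilobase in the 5 groups, and that sum lay between 8.51 and 9.68 CPM per kilobase in the group means. The ratio of the D cyclin sum to the kinase sum was 2.25 ± 0.408 in NP livers, 2.69 ± 0.504 at 8 dpc and 0.959 ± 0.0519 at 16 dpc with AAV8-null, and 8.47 ± 2.11 and 4.93 ± 2.35 at 8 dpc and 16 dpc with AAV8-p21. The inhibitors other than Cdkn1a summed to 6.69 ± 0.723 CPM per kilobase in NP livers, 9.47 ± 1.41 at 8 dpc and 5.75 ± 1.399 at 16 dpc with AAV8-null, and to 4.80 ± 0.520 and 3.48 ± 0.544 at 8 dpc and 16 dpc with AAV8-p21. By group means Cdkn1b held 44.3% to 57.5% of their sum and Cdkn2c 29.7% to 40.4%, but Cdkn2c was above Cdkn1b per kilobase in 8 dpc AAV8-null library 2 (4.63 against 4.36) and 8 dpc AAV8-p21 library 3 (1.83 against 1.66).

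The merged length can exceed that of the transcripts present (3553 bases for Cdkn1a, whose 4 transcripts with the whole insert sequence have 922 to 2080), which lowers the level per kilobase, so the order and the shares hold for this scale alone. In NP livers the order per kilobase was Ccnd1 (16.1 ± 6.44), Cdk4 (8.11 ± 1.75), Ccnd3 (4.44 ± 1.24), Cdkn1b (3.27 ± 0.291), Cdkn2c (2.13 ± 0.316), Cdkn1c (1.29 ± 0.326), Cdk6 (1.27 ± 0.280) and Ccnd2 (0.955 ± 0.231). The ranges of mean ± SD overlapped for the neighbours Ccnd1 and Cdk4, for Ccnd3 and Cdkn1b, and for those from Cdkn1c to Ccnd2. Cdkn1a had no set place, with 9.49 CPM per kilobase in the NP library that stood apart and 1.44 and 0.925 in the other two. In 16 dpc AAV8-null livers Cdkn1a led (23.6 ± 10.6), followed by Cdk4 (7.60 ± 0.647) and Ccnd1 (4.89 ± 0.598). In AAV8-p21 livers Cdkn1a led at both stages (152 ± 47.4 and 335 ± 122), followed by Ccnd1 (73.6 ± 22.5 and 40.9 ± 15.9). Those Cdkn1a counts include any transcript of the 480-base insert but are divided by the merged 3553 bases. They therefore give no level per length of the endogenous gene.

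**Figure D3:**
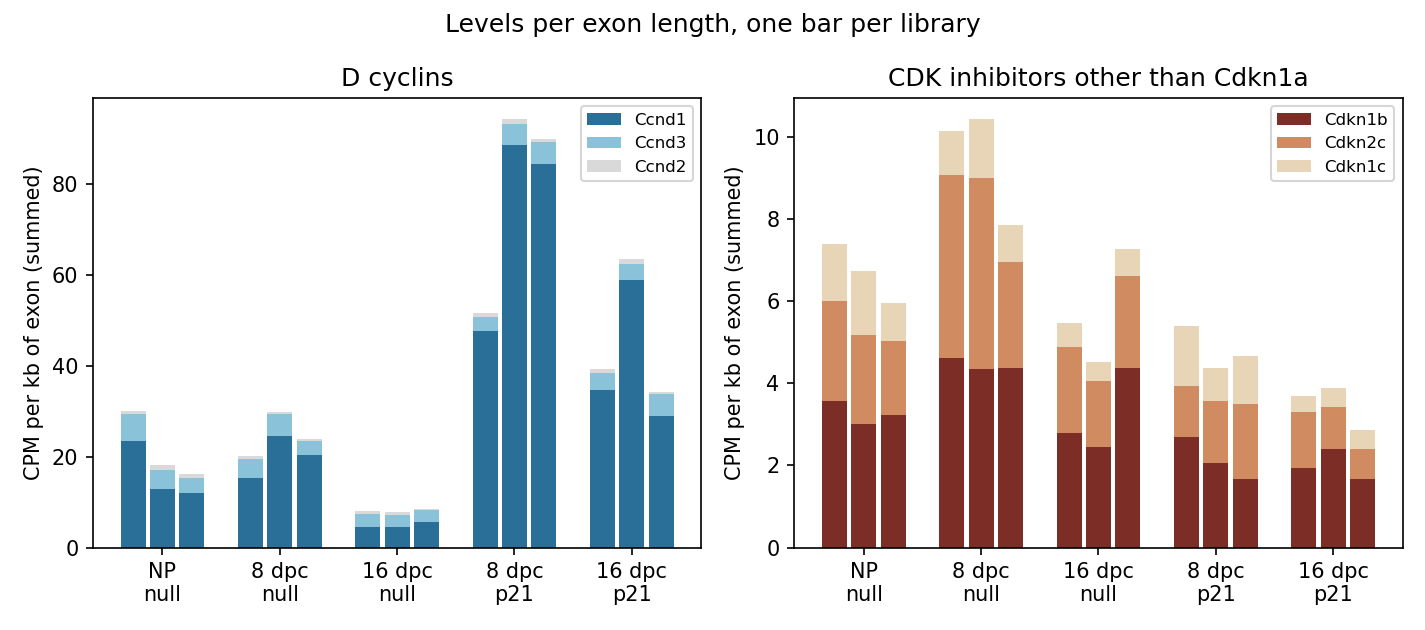
Summed level per kilobase of exon (CPM per kb) of the D cyclins (left) and of the CDK inhibitors other than Cdkn1a (right), 1 stacked bar per library, by group. Ccnd1 takes most of each left-hand bar, the AAV8-p21 bars (34.3 to 94.3) stand above all AAV8-null bars (7.80 to 30.1), and the inhibitor bars are highest at 8 dpc with AAV8-null (7.85 to 10.4).

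Cdkn2c and the proliferation markers were both highest in the same 2 libraries. The genes most like it over the 15 libraries, by Pearson's r of log2 CPM, were Espl1 (separase, which cuts cohesin at anaphase, 0.90), Zfp947 (0.90) and Prc1 (a protein of the mitotic spindle midzone, 0.90), with values of 0.82, 0.79 and 0.86 within groups, after taking out group means. The least like was Lamc1 (a laminin chain, -0.83). In AAV8-null livers at 8 dpc the 15 markers summed to 205, 214 and 58.7 CPM, in the libraries where Cdkn2c was 11.9, 12.4 and 6.92 CPM. In the other groups the marker sum lay between 35.8 and 89.4 CPM and Cdkn2c between 1.97 and 6.51 CPM. The order of the libraries was the same for both measures in the 8 dpc AAV8-null group and in both AAV8-p21 groups, with marker sums of 53.8, 67.1 and 89.4 CPM for 3.31, 4.05 and 4.90 CPM of Cdkn2c at 8 dpc with AAV8-p21. It differed in the NP group and in the 16 dpc AAV8-null group, where the lowest marker sum (46.9 CPM) went with the highest Cdkn2c (6.05 CPM). The part of the proliferation markers in the Cdkn2c difference between vectors was not tested. These correlations are descriptions over 5 groups of 3 libraries.

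**Figure D4:**
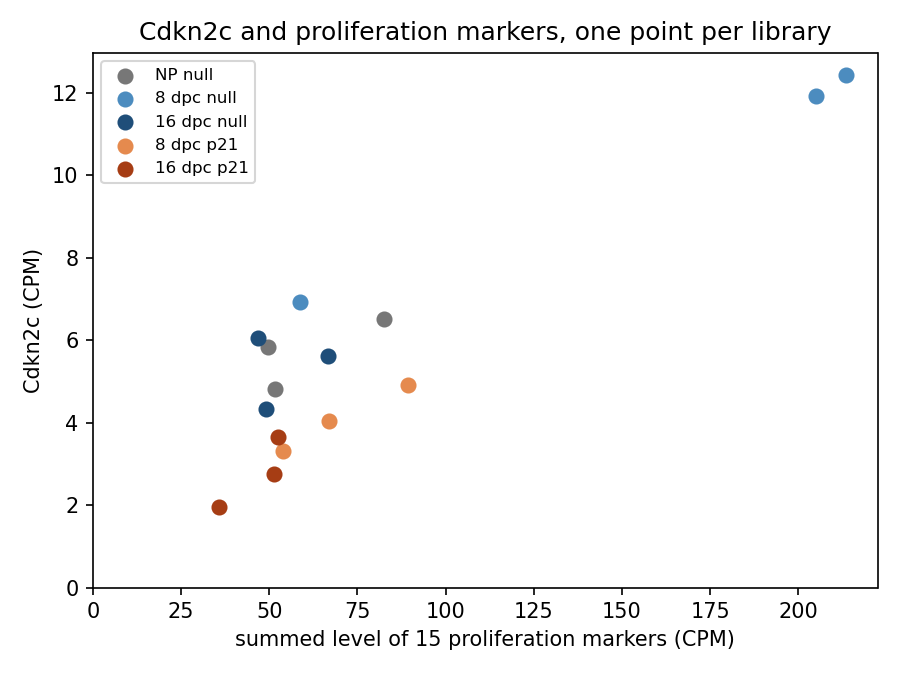
Cdkn2c (CPM) against the summed level of 15 proliferation markers (CPM), 1 point per library, coloured by group. Among the 8 dpc AAV8-null livers, 2 lie apart at 205 and 214 CPM of the markers and 11.9 and 12.4 CPM of Cdkn2c, while 1 library of that group lies at 58.7 and 6.92 CPM.

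Ccnd1 was most like Gmds (a GDP-mannose dehydratase, r = 0.90), Elovl6 (a fatty acid elongase, 0.87) and Tomm40l (0.86) and least like Zfand5 (-0.87), with within-group values of 0.23, 0.10, 0.52 and -0.30. Cdkn1a was most like Gnat2 (0.92), Armcx2 (0.88) and Thnsl2 (0.87) and least like C1s2 (-0.85). Cdkn1c was most like Adam11 (0.92), Wdr90 (0.91) and Ywhaq (0.91) and least like Itfg1 (-0.94). Within groups the values were 0.07 to 0.58 for the 4 genes of Cdkn1a, and 0.77, 0.66, 0.35 and -0.61 for those of Cdkn1c.

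Of 13 genes of the RB and E2F families, through which the D cyclins act, 0 passed in any of the comparisons by edgeR, and 0 between vectors by DESeq2. For the vectors averaged over stages, where 12.4% of all genes tested had an unadjusted p below 0.05, 2 of these 13 did, Rb1 (-0.47, adjusted p = 0.324) and Rbl1 (-0.61, adjusted p = 0.403), followed by E2f8 (-0.69, adjusted p = 0.526), and the median log2 difference of the list was -0.22. From 8 dpc to 16 dpc in AAV8-null livers the pocket protein gene Rbl2 came nearest (-0.85, adjusted p = 0.0599), and it was the 1 gene of this list that DESeq2 called in any comparison.

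Of the 5 genes for cyclin E, cyclin A, CDK2 and the phosphatase CDC25A, 0 passed in any comparison by edgeR, and DESeq2 called Ccne1 and Ccne2 between the stages of AAV8-p21 livers. Between vectors on average 1 of the 5 had an unadjusted p below 0.05, against the 12.4% of all genes given above. Ccne1, which encodes cyclin E1, averaged 1.26 ± 0.343 CPM with AAV8-null and 3.41 ± 0.870 CPM with AAV8-p21 at 16 dpc (SD, n = 3), a log2 difference of 1.44 (adjusted p = 0.301), and over both stages 1.01 (adjusted p = 0.247). Cdc25a (-0.31, adjusted p = 0.529) and Ccne2 (-0.53, adjusted p = 0.615) came next in that average. Ccna2, which encodes cyclin A2 and is made in S phase, differed between vectors by -2.22 at 8 dpc (adjusted p = 0.922) and between 8 dpc and 16 dpc by -3.15 with AAV8-null (adjusted p = 0.0904).

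Of the 15 proliferation markers, 4 fell from 8 dpc to 16 dpc in AAV8-null livers (Mcm5, Mcm6, Top2a and Ccnb1) in edgeR, against 6.75% of all genes, and 8 in DESeq2. All 15 had a negative difference there, and their median was -2.08. From NP to 8 dpc 0 passed in edgeR, 9 had an unadjusted p below 0.05, all of them higher at 8 dpc, against 6.56% of all genes in either direction, and DESeq2 called 2 (Top2a and Ccnb1). Between vectors at 8 dpc 0 of 15 passed, 7 had an unadjusted p below 0.05 (5.13% of all genes), all of them lower with AAV8-p21, DESeq2 called 1 of them (Ccnb1), and the median was -0.78. At 16 dpc 0 passed, 1 was lower at the unadjusted threshold (9.68% of all genes in either direction, 4.64% of all genes lower), and the median was -0.14. The marker sum of the 8 dpc AAV8-p21 livers, which held the most Ccnd1 (225 to 417 CPM), was 53.8, 67.1 and 89.4 CPM, and that of the AAV8-null livers of the same stage was 205, 214 and 58.7 CPM. The groups overlapped, with 2 AAV8-null libraries above all AAV8-p21 libraries.

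Of the CDK inhibitors beyond the 9 genes, Cdkn2d (p19, of the INK4 group) and Cdkn3 were tested, while Cdkn2a and Cdkn2b had too few counts. Neither of the former passed in any comparison by edgeR or DESeq2, and Cdkn3 had the larger difference between vectors (-1.77 on average, adjusted p = 0.431, against -0.16 for Cdkn2d). The 3 genes of the CDK-activating kinase, Cdk7, Ccnh and Mnat1, did not pass by either tool, with average differences of -0.03, 0.07 and 0.16 and 0 of 3 under an unadjusted p of 0.05.

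Of 13 genes for the turnover and assembly of D cyclins and inhibitors, 1 passed from 8 dpc to 16 dpc with AAV8-null, against 6.75% of all genes. It was Skp2, whose product marks p27 for destruction, which fell by 1.23 (adjusted p = 0.0468), from 1.86 ± 0.531 to 0.788 ± 0.198 CPM. Between these stages with AAV8-p21, 1 of the 13 passed, against 3.29% of all genes. It was Usp2, a deubiquitinase known to spare cyclin D1, which rose by 3.51 (adjusted p = 0.0459), from 4.34 ± 3.74 to 48.7 ± 22.6 CPM. Usp2 is also a gene of the daily clock, and its level ranged from 5.96 to 58.2 CPM among NP livers. Between vectors 0 of the 13 passed at either stage or on average by edgeR or DESeq2, and 0 had an unadjusted p below 0.05 on average. The smallest p on average were those of Cul1 (-0.21, adjusted p = 0.426), Ambra1 (0.22, adjusted p = 0.454) and Gsk3b (-0.27, adjusted p = 0.516).

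Of 9 transcription factors known to act on these genes, Jun, Fos and Myc were higher at 16 dpc than in NP livers with AAV8-null, by 1.71, 2.56 and 1.42 (adjusted p = 0.00922, 0.00956 and 0.0365), so 3 of 9 passed, against 6.47% of all genes. Ccnd1 was lower there. From 8 dpc to 16 dpc 3 of 9 passed, against 6.75% of all genes, of which Jun (1.86, adjusted p = 0.00626) and Myc (1.35, adjusted p = 0.0448) rose and Foxm1, a factor of the G2 and M phases, fell by 4.30 (adjusted p = 0.0356) from 4.16 ± 3.27 to 0.202 ± 0.183 CPM. Jun also rose between these stages with AAV8-p21 (1.75, adjusted p = 0.0119). Between vectors 0 of these 9 factors passed in edgeR at either stage or on average, while DESeq2 called Fos lower with AAV8-p21 at 8 dpc (-1.98 in edgeR, adjusted p = 0.428). On average 2 had an unadjusted p below 0.05, against 12.4% of all genes, and Fos (-1.11, adjusted p = 0.209), Klf6 (-1.05, adjusted p = 0.276) and Foxo1 (-0.42, adjusted p = 0.479) were the nearest. Trp53, the gene for p53, was not called in any comparison.

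Markers of other cells also differed between stages and vectors. From NP to 16 dpc with AAV8-null, where Ccnd1, Cdkn1a and Cdkn1c were called, the neutrophil markers S100a8 and S100a9 rose by 3.99 and 3.77 (adjusted p = 0.00165 and 0.00909), the erythroid marker Alas2 rose by 1.504 (adjusted p = 0.0128) and, of the 6 stellate cell and fibroblast markers, Lrat fell by 1.41 (adjusted p = 0.0271), while 3 had a positive difference. The neutrophil sum was 0.305 to 1.52 CPM in NP livers and 4.17 to 21.7 CPM at 16 dpc, with the neutrophil marker Ly6g at 0 in both groups, the erythroid sum was 17.1 to 48.7 CPM and 51.4 to 88.4 CPM, and the stellate cell and fibroblast sum was 179 to 194 CPM and 186 to 254 CPM. From 8 dpc to 16 dpc, where Ccnd1 was called, the endothelial markers Pecam1 and Clec4g rose by 1.16 and 0.80 (adjusted p = 0.0309 and 0.0206) and Dcn of the fibroblast list by 1.04 (adjusted p = 0.0144), with an endothelial sum of 95.9 to 131 CPM at 8 dpc and 177 to 238 CPM at 16 dpc. No bile duct marker passed between stages with AAV8-null in edgeR or DESeq2, and their sum was 19.7 to 31.4 CPM in NP livers, 18.0 to 26.8 CPM at 8 dpc and 8.41 to 17.3 CPM at 16 dpc, so that, as for Ccnd1, the 16 dpc livers were below all others. Between the stages of AAV8-p21 livers, where Cdkn1c was called, 1 of 3 erythroid markers tested (Alas2) and 2 of 5 hepatocyte markers (Alb and Apoa1) rose in edgeR, against 3.29% of all genes. DESeq2 called the same genes.

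Between vectors, all 6 stellate cell and fibroblast markers had a positive average difference between vectors, 4 of them with an unadjusted p below 0.05 (12.4% of all genes), and their sum was 95.5 to 155 CPM with AAV8-null and 172 to 235 CPM with AAV8-p21 at 8 dpc, and 186 to 254 CPM and 214 to 232 CPM at 16 dpc. Of the 5 bile duct markers 4 had a positive difference, and their sum was 18.0 to 26.8 CPM with AAV8-null and 35.95 to 53.3 CPM with AAV8-p21 at 8 dpc, and 8.41 to 17.3 CPM and 19.6 to 43.0 CPM at 16 dpc. No marker of these 2 lists was at 0 in a whole group, and none passed the test between vectors in edgeR, while DESeq2 called Spp1 of the bile duct list at 16 dpc and on average. Of the neutrophil markers, S100a8 was lower with AAV8-p21 on average in edgeR, and DESeq2 called S100a8 lower at 16 dpc and S100a8 and S100a9 on average. Their sum was 4.41 to 11.7 CPM with AAV8-null and 1.77 to 2.96 CPM with AAV8-p21 at 8 dpc, and 4.17 to 21.7 CPM and 1.96 to 3.42 CPM at 16 dpc, without overlap at either stage. The part of these cells in the differences of the 9 genes was not tested, and in whole liver a change in the number of cells of a type and a change in their RNA cannot be told apart.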

How the data were processed

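RNA-seq of whole liver was measured in 15 mice. The authors made stranded single-end libraries from poly(A) RNA, trimmed reads (cutadapt 1.14), used HISAT2 2.1.0 for alignment to mm10 and counted uniquely mapped reads on protein-coding genes of GENCODE with HTSeq-count (0.12.4); the strand setting is not given in the sources used here. The deposited values are raw counts per gene, without normalization. Uniquely mapped counting leaves out reads shared by near-identical genes.

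Libraries were matched to groups through the labels. The table numbers the 16 dpc AAV8-p21 libraries 1, 3 and 4, which the labels do not, so they were not matched to single samples. Where named they carry the table's numbers, and their values are given in the table's order. Counts were tested by quasi-likelihood in edgeR 4.0.16 (R 4.3.3, TMM, filterByExpr with a minimum count of 10, 1 model of 5 group means over all 15 libraries, 10 residual degrees of freedom, Benjamini-Hochberg adjustment over 12172 genes, call at an adjusted p under 0.05). The common biological coefficient of variation was 0.277. SEs were taken from the F statistic and 95% intervals from the t distribution with the fit's degrees of freedom. Exact two-sided permutation tests used log2(CPM + 0.5), with vector labels exchanged within stage for the average. They cannot go below 0.1 with 3 mice against 3, or below 0.005 for the average. Exon lengths and positions were read from GENCODE M21 (GRCm38), which held 21588 of 21702 genes, and promoter windows from RefSeq on GRCm38.p6. Depth was 12280709 to 17615185 counts per library. The fits were tested on simulated counts.

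The genes and lists were chosen with earlier results of these data known. Named were all 9 genes, in each list the genes called and, for the vector average, those with the smallest p, and for each called gene the 3 genes most and the 1 least correlated with it. Alternatives were DESeq2 size factors, no filter, the DESeq2 1.42.0 Wald test, edgeR on the compared groups alone, a further log2 threshold of 1, a replicate block, Cdkn1a left out and each library left out.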

Additional observations from a re-analysis of the deposited data

How the results depend on the processing

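In every alternative that gave the comparison (the fits on the 12 numbered libraries give none with 16 dpc AAV8-p21), Ccnd1 passed the test between NP and 16 dpc and between 8 dpc and 16 dpc with AAV8-null, between vectors at 16 dpc and on average, and Cdkn1a passed between vectors on average; the other calls of the 9 genes did not all hold. Of the 9 genes, no filter on low counts left 1 called from NP to 16 dpc, and 17 genes of the table between vectors at 16 dpc. The DESeq2 Wald test on all 15 libraries called 1207 genes from NP to 16 dpc, 73 from NP to 8 dpc, 1362 from 8 dpc to 16 dpc (Ccnd1 and Cdkn2c of the 9), 135 between vectors at 16 dpc (3 of the 9), 29 at 8 dpc (4 of the 9), 206 on average (5 of the 9) and 802 between the AAV8-p21 stages. On the compared groups alone it called 1 of the 9 from NP to 16 dpc, 2 (Ccnd1 and Cdkn1a) from 8 dpc to 16 dpc, 135 genes (2 of the 9) between vectors at 16 dpc, 84 (4 of the 9) at 8 dpc and 241 (5 of the 9) on average, and 78 genes from NP to 8 dpc, 868 between the AAV8-p21 stages and 14 for the interaction. edgeR on the compared groups alone called 399 genes (1 of the 9) from NP to 16 dpc, 330 from 8 dpc to 16 dpc, 5 (1 of the 9) between vectors at 8 dpc and 8 on average, 2 of the 9 between vectors at 16 dpc, and 0 of the 9 between the AAV8-p21 stages. The cause of these differences was not tested.

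Leaving out 1 library at a time, the genes called ranged from 373 to 733 (1 to 2 of the 9) for NP to 16 dpc, 0 to 94 for NP to 8 dpc, 255 to 1280 (1 to 2) for 8 dpc to 16 dpc, 3 to 36 between vectors at 16 dpc, 2 to 37 (0 to 1) at 8 dpc, 5 to 56 (2 to 3) on average and 155 to 463 (0 to 1) between the AAV8-p21 stages. The fits with the most calls left out 8 dpc AAV8-null library 3 (NP to 8 dpc, 8 dpc to 16 dpc, vectors at 8 dpc) or 16 dpc AAV8-p21 library 4 (vectors at 16 dpc and on average), and those with the fewest left out NP library 2 (NP to 16 dpc), 8 dpc AAV8-null library 1 (vectors at 8 dpc and on average) or 2 (8 dpc to 16 dpc), 16 dpc AAV8-null library 2 (vectors at 16 dpc) or 8 dpc AAV8-p21 library 1 (AAV8-p21 stages). These fits also turned the sign of small differences that were not called: Ccnd2 ranged from -0.28 to 0.14 (8 dpc to 16 dpc), -0.30 to 0.21 (AAV8-p21 stages) and -0.19 to 0.33 (interaction); Ccnd3 from -0.33 to 0.075 (NP to 8 dpc), -0.26 to 0.047 (AAV8-p21 stages) and -0.072 to 0.26 (vectors, 8 dpc); Cdk4 from -0.21 to 0.094 (NP to 16 dpc), -0.13 to 0.18 (NP to 8 dpc), -0.092 to 0.16 (AAV8-p21 stages), -0.0083 to 0.24 (interaction), -0.053 to 0.071 (vectors, average), -0.057 to 0.19 (vectors, 16 dpc) and -0.15 to 0.036 (vectors, 8 dpc); Cdkn1b from -0.31 to 0.13 (NP to 16 dpc) and -0.25 to 0.11 (AAV8-p21 stages); Cdkn1c from -0.20 to 0.21 (vectors, 8 dpc); and Cdkn2c from -0.21 to 0.026 (NP to 16 dpc).

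On average same-numbered libraries did not deviate together (mean r = 0.00588 over 18 pairs, -0.576 to 0.472), and the mean over 36 pairs of different number was -0.00701. Single pairs ranged widely and the 16 dpc AAV8-p21 group was not in this check, so it cannot show that the numbers pair nothing. With the number as a block on the 12 numbered libraries, the log2 difference from NP to 16 dpc was 2.98 for Cdkn1a (adjusted p = 0.0424, still called) and -1.19 for Cdkn1c (0.0929, no longer called), with 660 genes called; without the block on these libraries both missed the threshold (0.0568 and 0.0604), which left 1 of the 9 called among 740 genes. Of 36 best matches between a library and another group, 9 were with its own number. No result met the rules for flagging, and at 9 to 15 counts per library, counting limits what can be said of Cdkn1c.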
